A study of Mus musculus with 33 samples.

Results

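The Hox genes of these mouse cells were taken as all rows of the expression table whose symbol is Hox followed by the letter of a cluster (a, b, c or d) and a paralog number, and 40 of the 37973 rows met that rule. They carry 39 gene symbols, because Hoxa3 has 2 rows. The Hoxa cluster, on the minus strand of chromosome 6, holds 12 rows; Hoxb holds 10, Hoxc 9 and Hoxd 9, on the plus strands of chromosomes 11, 15 and 2. The study followed primary mouse embryonic fibroblasts, taken from embryos at 14 to 15 days post coitum, while they were reprogrammed towards pluripotency. Their genotype was Col1a1-OSKM+/-; Rosa26-rtTA+/-; Oct4-GFP+/-, so that doxycycline at 1 µg/ml switched on a single cassette of Oct4, Sox2, Klf4 and c-Myc, and a green fluorescent reporter marked cells with an active Oct4 promoter. The cells were transduced with lentivirus either as control or to overexpress Dppa2 and Dppa4, chromatin-associated proteins of early embryos and pluripotent cells. They were then sorted on days 2 to 14 by Thy1, a fibroblast surface protein, by SSEA1, a carbohydrate antigen that appears early in reprogramming, and by GFP. The 30 sorted libraries comprised 13 controls and 17 with Dppa2/4: 8 of Thy1+SSEA1- cells, 2 of Thy1+SSEA1+ cells, 9 of Thy1-SSEA1- cells, 6 of Thy1-SSEA1+ cells and 5 of GFP+ cells. A further pair, control and Dppa2/4 on day 2, came from fibroblasts without the reprogramming cassette (Rosa26-rtTA+/-; Oct4-GFP+/-) and was assigned to 2 columns because no other sample matched them. The descriptions of that pair say day 1 and name the cassette. Control Thy1+SSEA1- cells of day 11 were not analysed here.

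Hox genes encode homeodomain transcription factors that give cells their position along the body axis, and the mouse keeps them in clusters on different chromosomes. Within a cluster the paralog number follows the order of the genes on the chromosome: low (anterior) numbers act in the hindbrain and neck, middle numbers in the trunk, and high (posterior) numbers in the lumbar, sacral and tail regions and in the outer limb. Fibroblasts keep the Hox code of the place they came from, while pluripotent cells hold the clusters silent under Polycomb repression with both active and repressive histone marks at their promoters. Paralogs 1 to 3 are called anterior here, 4 to 8 central and 9 to 13 posterior.

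The Hoxd cluster shows the widest range of responses to Dppa2/4, and the 250 bases before the start of 4 of its genes are given here because Hoxd1, Hoxd8 and Hoxd9 rose while Hoxd13 did not. The sequences are from RefSeq on GRCm38.p6, plus strand, and capitals mark each CG dinucleotide, the site at which DNA methylation acts. Hoxd1 is at chr2:74762730-74762979, Hoxd8 at chr2:74704365-74704614, Hoxd9 at chr2:74697513-74697762 and Hoxd13 at chr2:74667975-74668224.
Hoxd1: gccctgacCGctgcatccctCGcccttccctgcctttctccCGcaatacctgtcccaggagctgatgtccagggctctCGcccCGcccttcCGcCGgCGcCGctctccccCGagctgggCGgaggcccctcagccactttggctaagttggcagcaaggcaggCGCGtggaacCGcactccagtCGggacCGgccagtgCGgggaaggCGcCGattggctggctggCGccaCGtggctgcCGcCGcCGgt
Hoxd8: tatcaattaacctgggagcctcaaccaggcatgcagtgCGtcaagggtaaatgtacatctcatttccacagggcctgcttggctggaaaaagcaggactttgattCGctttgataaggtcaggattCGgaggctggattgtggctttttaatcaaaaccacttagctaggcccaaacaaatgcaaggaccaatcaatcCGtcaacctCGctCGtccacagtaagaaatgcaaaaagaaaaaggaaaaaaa
Hoxd9: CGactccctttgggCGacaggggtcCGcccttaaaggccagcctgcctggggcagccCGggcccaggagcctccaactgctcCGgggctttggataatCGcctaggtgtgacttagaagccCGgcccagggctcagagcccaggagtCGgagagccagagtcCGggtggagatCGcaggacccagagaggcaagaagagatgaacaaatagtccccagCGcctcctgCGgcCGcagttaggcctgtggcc
Hoxd13: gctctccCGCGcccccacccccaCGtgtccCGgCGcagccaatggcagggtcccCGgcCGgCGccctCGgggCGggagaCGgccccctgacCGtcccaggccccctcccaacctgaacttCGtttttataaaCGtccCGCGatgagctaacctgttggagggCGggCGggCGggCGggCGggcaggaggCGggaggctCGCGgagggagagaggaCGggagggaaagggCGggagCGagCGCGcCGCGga

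The windows of Hoxd1 and Hoxd13 held 24 and 31 CG dinucleotides and those of Hoxd8 and Hoxd9 held 6 and 13. Of the 2 windows richest in CG, 1 belongs to a gene that rose (Hoxd1) and 1 to a gene that did not (Hoxd13). RefSeq promoters matched 22 of the 39 Hox symbols, with 24 windows in all. Their median was 12.5 CG dinucleotides (range 2 to 35), against 6 over all 32851 promoters in that table. The 11 windows of genes that rose with Dppa2/4 had a median of 12, and the 13 windows of genes that did not pass that test or, as Hoxb1, did not enter it had a median of 13. The letters TATAAA, searched on both strands, were in 16.7% of the Hox windows and in 12.4% of all windows. TGATNNAT, letters bound by Hox and Pbx proteins together, were in 16.7% and 7.68%; the 2 motifs were counted separately and may overlap.

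Values are FPKM, a fragment count scaled to transcript length and library depth, which allows levels of different genes to be set side by side. The depth implied by the low values was about 21.5 M to 43.0 M fragments (M, mega) for the sorted libraries, with a median of 29.9 M, and 16.3 M and 13.7 M for the pair without the cassette. Dppa2 read 43.2 to 612 FPKM in sorted Dppa2/4 libraries outside the GFP+ gate, except in the day 4 Thy1+SSEA1- library labelled Dppa2/4, where Dppa2 was 0.354 and Dppa4 0.409. The Thy1+SSEA1- controls held Dppa2 at 0.149 to 0.527 FPKM, so that library went against its label, and the fits that use it were also run with it left out, together with its pair in paired comparisons. In GFP+ cells Dppa2 was 45.4 and 66.1 FPKM in controls and 49.3 to 61.5 with Dppa2/4, values that do not separate endogenous from lentiviral transcripts. Nanog, a pluripotency factor, read 260 to 360 FPKM in GFP+ cells and at most 29.4 in SSEA1- cells, and Thy1 read 195 to 749 in Thy1+SSEA1- cells and 4.71 to 9.77 in GFP+ cells. The control day 11 GFP+ library was used as titled, although its description gives the Thy1-SSEA1+ gate. Each combination of arm, day and gate is 1 library, and the labels do not say which libraries came from separate cultures, so p-values measure the spread between these libraries. In bulk libraries, fewer cells of a type and less RNA per cell cannot be told apart.

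The cells of the SSEA1- gates expressed many Hox genes of central and posterior position. Hoxa10 had the highest level in 12 of the 17 SSEA1- libraries. The exceptions were the 4 libraries of day 2, led by Hoxd13, Hoxa7, Hoxc8 and Hoxb9, and the Dppa2/4 day 4 Thy1-SSEA1- library, led by Hoxc6. Summed over all 40 rows, Hox FPKM ranged from 145 to 232 in the 17 SSEA1- libraries. The share of that sum held by posterior genes was 67.4% to 76.8% in the Thy1+SSEA1- controls, and in the Thy1-SSEA1- controls it was 49.5% to 62.8%. In the fibroblasts without the cassette it was 46.0% in the control and 44.9% with Dppa2/4, and their central genes summed to slightly more than the posterior ones, 80.1 against 75.2 FPKM in the control. The 3 genes of each cluster with the highest mean over the 30 sorted libraries were Hoxa10 (24.0 FPKM), Hoxa9 (12.7) and Hoxa7 (8.83); Hoxb9 (5.38), Hoxb7 (1.69) and Hoxb6 (0.945); Hoxc6 (11.0), Hoxc10 (9.84) and Hoxc8 (7.49); and Hoxd13 (10.9), Hoxd8 (10.3) and Hoxd9 (4.67). At the other end, Hoxb1, Hoxb13, Hoxc12 and the second Hoxa3 row stayed under 0.4 FPKM in all 32 libraries and entered no test. The heat map shows the Hoxa, Hoxc and Hoxd clusters well above most of Hoxb.

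**Figure D1:**
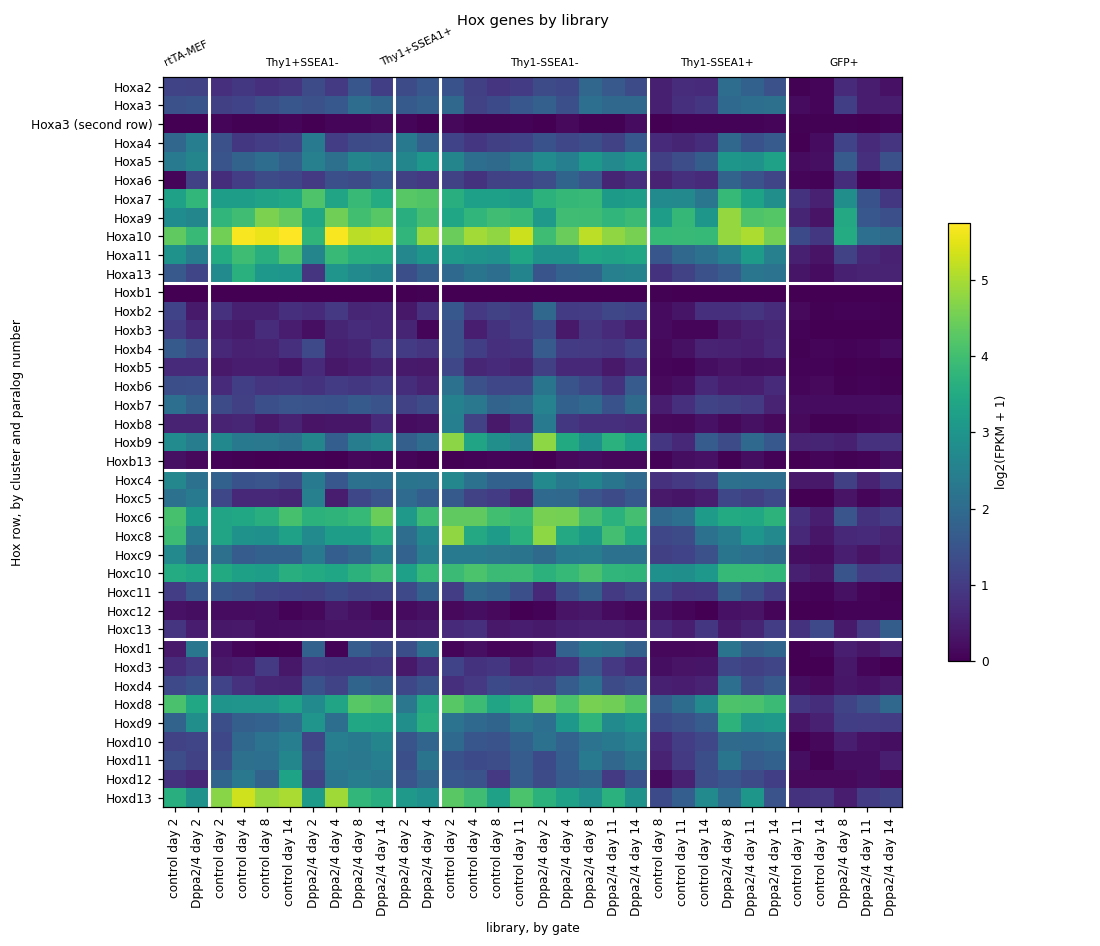
Each row is a Hox row in cluster and paralog order, each column a library ordered by gate, arm and day, and colour gives log2(FPKM + 1). The control GFP+ columns are dark in every cluster, Hoxa10, Hoxa9 and Hoxa7 are brighter in the Dppa2/4 day 8 GFP+ column (10.6, 10.1 and 6.17 FPKM), and the control columns of the Thy1-SSEA1+ gate are darker than the Dppa2/4 columns beside them.

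In both arms the summed Hox level was lowest in GFP+ cells, and the arms were far apart in the Thy1-SSEA1+ and GFP+ gates. In the SSEA1- gates they overlapped. Thy1+SSEA1- sums were 156 to 230 FPKM in controls and 145 to 221 with Dppa2/4, and Thy1-SSEA1- sums were 159 to 232 and 191 to 226. In control Thy1-SSEA1+ cells the summed Hox level was 60.1, 70.6 and 88.3 FPKM on days 8, 11 and 14, against 192, 180 and 163 FPKM with Dppa2/4. In GFP+ cells it was 12 and 11.9 in controls on days 11 and 14, against 52.3, 24.9 and 30.7 with Dppa2/4 on days 8, 11 and 14. The arms did not overlap in either gate, and in Thy1-SSEA1+ cells the Dppa2/4 sums were within the range of the SSEA1- libraries. The number of Hox rows at 1 FPKM or more was 14, 15 and 20 in control Thy1-SSEA1+ cells and 29, 28 and 29 with Dppa2/4, and in GFP+ cells 2 and 2 against 13, 8 and 10. In the Thy1-SSEA1+ gate the summed level of 12 fibroblast markers was 90.6 to 513 FPKM in controls and 136 to 438 with Dppa2/4, so the arms overlapped there. That of 10 pluripotency markers was 846 to 1925 FPKM in controls and 258 to 944 with Dppa2/4, with medians of 918 and 494. These ranges overlapped only from 846 to 944, and the part of the markers in the Hox difference was not tested.

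To ask which Hox genes respond to Dppa2/4, each Dppa2/4 library was set against the control library of the same day and gate, which gave 13 strata and 26 libraries. Of 36 Hox rows tested, 15 rose and 0 fell (limma on log2(FPKM + 1), adjusted p under 0.05 over 16835 genes). Of all genes tested, 23.4% were called, 15.6% higher and 7.75% lower. The median Hox difference was 0.34 on the log2 scale, against 0.03 for all genes, and 32 of 36 rows had a positive difference. By cluster, 6 of 11 Hoxa rows, 0 of 8 Hoxb, 3 of 8 Hoxc and 6 of 9 Hoxd rose. A row entered the test where 2 or more libraries reached 1 FPKM. Hoxd1 did not reach 1 FPKM in any control, and Hoxd3 did so only in the day 2 Thy1-SSEA1- control. Both therefore entered only through the Dppa2/4 arm, in which they were higher. At an unadjusted p under 0.05 (limma) the count over all clusters was 21 higher and 0 lower, and 37.3% of all genes passed in either direction. By position, 5 of 7 anterior rows, 8 of 15 central and 2 of 14 posterior rows rose, and the 7 tested rows with paralog numbers 11 to 13 held 0 of the calls with a median difference of 0.02. When the values were quantile normalized, all genes split 1971 higher to 2107 lower in place of 2629 to 1304, and 14 of the 15 Hox calls held with the same sign. The Hox median was then 0.22 and 25 of 36 rows were positive. With the day 4 Thy1+SSEA1- library labelled Dppa2/4 and its control left out, 14 rows rose; Hoxd3 then had an adjusted p of 0.0527 (limma).

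**Figure D2:**
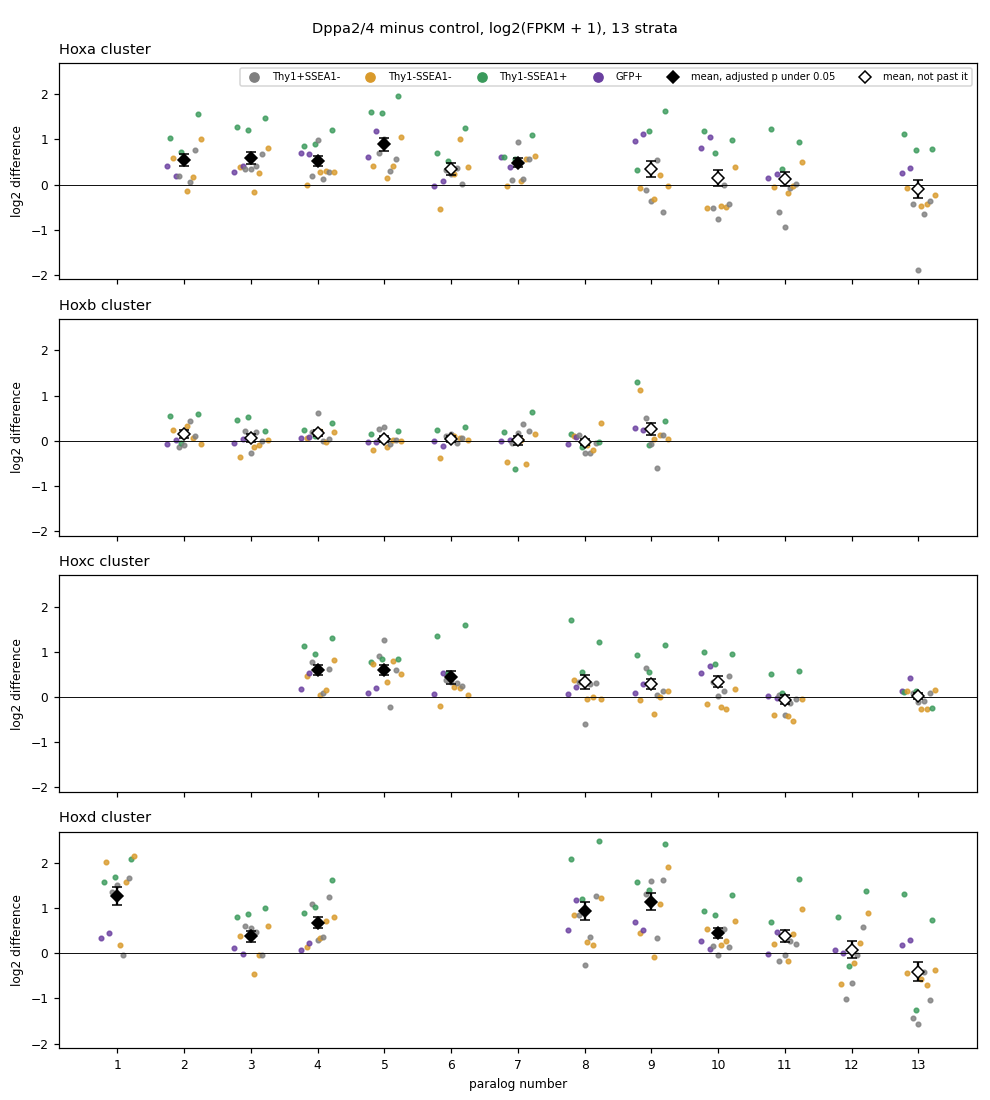
Each panel is a cluster, the x axis is the paralog number, small points are the Dppa2/4 minus control differences of the 13 strata on the log2(FPKM + 1) scale coloured by gate, and diamonds are means with the standard error, filled where the adjusted p was under 0.05. Filled diamonds lie at paralog numbers 1 to 10 in the Hoxa, Hoxc and Hoxd panels, and the Hoxb panel has none.

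Hoxd1, the most anterior gene of its cluster and active in sensory and spinal neurons, was nearly absent from controls. In Thy1+SSEA1- cells it read 0.215, 0.067, 0 and 0.0158 FPKM in controls on days 2, 4, 8 and 14, against 2.43, 0.0437, 2.18 and 1.59 with Dppa2/4. In Thy1-SSEA1- cells it read 0.0774, 0.186, 0.0525 and 0.0838 in controls on days 2, 4, 8 and 11, against 0.221, 2.52, 3.67 and 3.36 with Dppa2/4, and 2.32 on day 14. All controls of these gates lay under 0.22, and the Dppa2/4 libraries of these gates lay above 1.5 except for the day 2 Thy1-SSEA1- library and the day 4 Thy1+SSEA1- library labelled Dppa2/4. In Thy1-SSEA1+ cells Hoxd1 was 0.0896, 0.0921 and 0.112 FPKM in controls on days 8, 11 and 14, against 3.63, 2.24 and 2.60, and in GFP+ cells it was 0 and 0.0654 against 0.391, 0.263 and 0.460. None of these controls reached 1 FPKM, so Hoxd1 entered the test only through the arm in which it was higher, and its rise is a description. Over the 13 strata the mean was 1.94 against 0.0813 FPKM, a log2 difference of 1.27 (SE 0.20, limma adjusted p = 0.00105), higher in 12 of 13. This was the largest Hox difference, and 1.38 with the day 4 Thy1+SSEA1- library labelled Dppa2/4 left out. Without it the differences of Hoxd9, Hoxd8 and Hoxa5, described next, were 1.21, 0.98 and 0.94, and each still passed the test.

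Hoxd9 and Hoxd8, middle genes of the same cluster, rose from levels that were not near 0. In Thy1+SSEA1- cells Hoxd9 read 1.60, 2.34, 2.52 and 3.13 FPKM in the controls of days 2, 4, 8 and 14, against 6.93, 3.23, 9.86 and 9.15 with Dppa2/4. In Thy1-SSEA1+ cells it read 1.46, 1.67 and 2.18 on days 8, 11 and 14, against 12.2, 6.93 and 7.43. The arms did not overlap in either gate, and the lowest Dppa2/4 value was again that of the library labelled day 4 Thy1+SSEA1-. In Thy1-SSEA1- cells Hoxd9 read 3.57, 2.9, 2.6 and 3.9 in controls and 3.3, 7.32, 12.5, 5.65 and 6.82 with Dppa2/4, so only the day 2 library lay among the controls. The mean was 6.66 against 2.20 FPKM, a log2 difference of 1.14 (SE 0.19, limma adjusted p = 0.00136), higher in 12 of 13 strata. For Hoxd8 the mean was 14.1 against 7.30 FPKM and the log2 difference 0.93 (SE 0.20, limma adjusted p = 0.00489), with means of 0.55, 0.62, 1.92 and 0.84 in the Thy1+SSEA1-, Thy1-SSEA1-, Thy1-SSEA1+ and GFP+ gates. Hoxd8 read 2.19, 3.06 and 5.56 FPKM in control Thy1-SSEA1+ cells and 16.7, 16.1 and 14.1 with Dppa2/4.

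Among the Hoxa genes, Hoxa2 to Hoxa5 and Hoxa7 rose, while Hoxa6 and Hoxa9 to Hoxa13 did not pass the test. Hoxa5, which acts in the neck, thorax and lung, read 1.81, 2.55, 3.12 and 2.35 FPKM in the Thy1+SSEA1- controls and 4.68, 3.36, 5.08 and 4.45 with Dppa2/4. In Thy1-SSEA1+ cells Hoxa5 read 1.12, 1.55 and 2.25 against 7.21, 6.78 and 8.79, and the arms did not overlap in either gate. Its log2 difference was 0.89 (SE 0.15, limma adjusted p = 0.00158), higher in 13 of 13 strata. Hoxa3, a gene of the pharyngeal arches, Hoxa2, which sets the identity of the second branchial arch, Hoxa4 and Hoxa7 differed by 0.60, 0.54, 0.52 and 0.48. In the Hoxc cluster Hoxc4, Hoxc5 and Hoxc6, the 3 most anterior genes it holds, rose by 0.59, 0.59 and 0.43. The Hoxc6 call was lost in 6 of 22 alternatives: without the block, with the pair without the cassette added, and without the day 11 or day 14 Thy1-SSEA1+, the day 14 GFP+ or the day 14 Thy1+SSEA1- stratum (limma adjusted p = 0.0525 to 0.713).

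The remaining calls were in Hoxd, with differences of 0.68 for Hoxd4, 0.45 for Hoxd10 and 0.37 for Hoxd3. Hoxd3 was higher in 9 of 13 strata, and its call was lost in 11 of 21 alternatives, among them quantile normalization (0.22, limma adjusted p = 0.152) and 8 of the 13 fits that left out 1 stratum. Its annotated exons share up to 53.1% of their bases on the same strand with Hoxd4 or the gene model Gm28230, so the authors' counting could split reads between them. Hoxc5 shares 5.37% of its exonic bases with Hoxc10, likewise on the same strand. For members with antisense partners, such as Hoxa7 (20.4% of exonic bases opposite Hoxaas3) and Hoxa11 (35.0% opposite Hoxa11os), reads of both strands cannot be told apart unless the counting used strand, which is not given in the sources used here.

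Hoxd13, the last gene of its cluster and a regulator of digits and the genital bud, showed the opposite order in SSEA1- cells, and the difference over all strata did not pass the test. In Thy1+SSEA1- cells it read 25.4, 39.4, 27.7 and 31.1 FPKM in controls on days 2, 4, 8 and 14, against 7.86, 29.4, 13 and 10.9 with Dppa2/4. In Thy1-SSEA1- cells it read 18.4, 14.7, 8.78 and 16.3 in controls on days 2, 4, 8 and 11, against 12, 8.7, 6.5 and 11.7 with Dppa2/4, and 6.62 on day 14. At each of these 8 day and gate combinations the Dppa2/4 library was the lower, though the ranges of the arms overlapped in both gates; with the day 4 Thy1+SSEA1- library labelled Dppa2/4 left out, the Thy1+SSEA1- ranges did not. In Thy1-SSEA1+ cells Hoxd13 was 1.43, 2.29 and 5.59 FPKM in controls and 3.05, 7.16 and 1.76 with Dppa2/4, and in GFP+ cells 0.794 and 0.845 against 0.379, 1.04 and 1.25. The log2 difference over 13 strata was -0.41 (SE 0.22, limma adjusted p = 0.194), with means of -1.11 in the Thy1+SSEA1- gate (-1.35 without its day 4 stratum) and -0.53 in the Thy1-SSEA1- gate. Hoxa13, its Hoxa paralog, was likewise lower with Dppa2/4 in 8 of 8 SSEA1- strata and higher in 5 of 5 others, with an overall difference of -0.10 (limma adjusted p = 0.767).

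**Figure D3:**
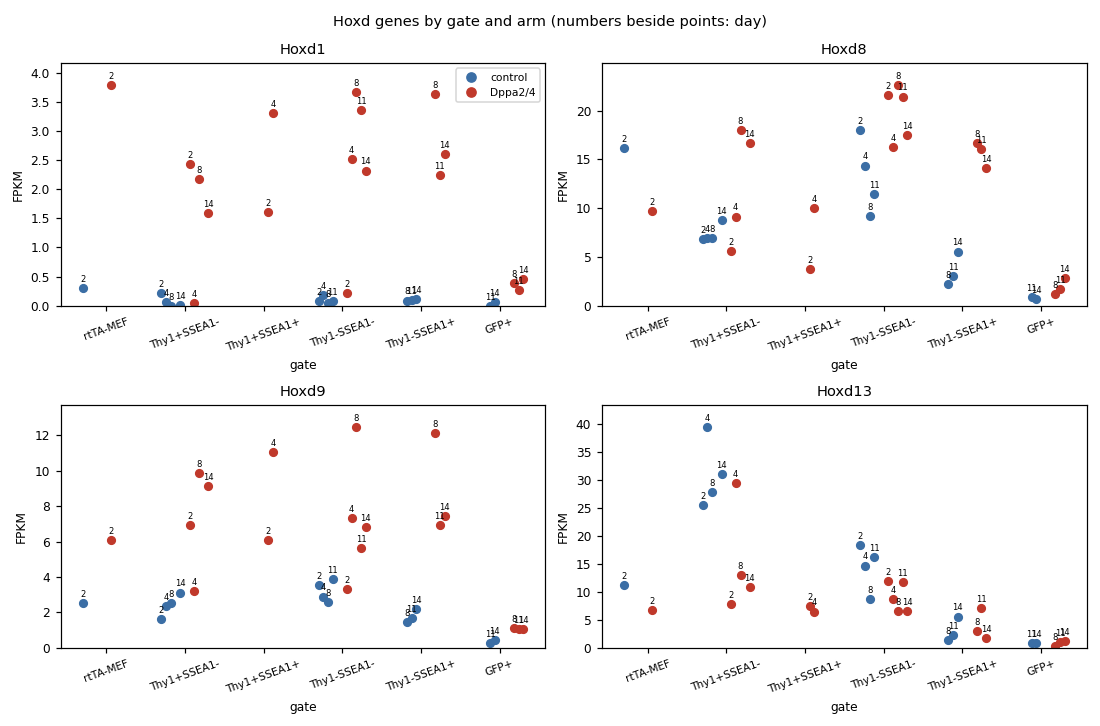
FPKM of Hoxd1, Hoxd8, Hoxd9 and Hoxd13 is plotted for each library by gate, blue for control and red for Dppa2/4, with the day beside each point. Hoxd1 points of controls lie along 0 while most Dppa2/4 points lie above 1.5, and the Hoxd13 panel has its highest points in control Thy1+SSEA1- cells, at 25.4 to 39.4.

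Hoxb was the only cluster without a call in this comparison. With 15.6% of all genes called higher, that count is not read as a trait of Hoxb. Its 8 tested rows had differences from -0.02 (Hoxb8) to 0.26 (Hoxb9) and a median of 0.05, and 0 of 8 passed the test. Hoxb4 had the smallest adjusted p of the cluster, 0.0809 (limma), with 0.764 against 0.565 FPKM and a higher value in 11 of 13 strata. The difference between clusters was not tested. Most Hoxb rows lay near or under 1 FPKM, where log2(FPKM + 1) compresses a change.

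To see whether the Dppa2/4 difference itself depended on the gate, the mean difference in the 5 Thy1-SSEA1+ and GFP+ strata was compared with that in the 8 SSEA1- strata. Of 36 rows, 3 differed and all 3 had the larger Dppa2/4 difference in Thy1-SSEA1+ and GFP+ cells; over all genes 0.511% were called in that direction, 0.505% in the other and 1.02% in either (86 larger and 85 smaller as deposited, 44 and 68 after quantile normalization). The 3 genes were Hoxa10 (by 1.30, SE 0.18, limma adjusted p = 0.0139), Hoxa9 (1.14, SE 0.22, adjusted p = 0.0357) and Hoxc10 (0.72, SE 0.16, adjusted p = 0.0498). All are posterior genes, and none of them was called in the comparison over all strata. The median over the 36 rows was 0.37, against 0.01 for all genes, and 34 were positive. In the same contrast the 12 fibroblast markers had a median of 0.52, with 0 called. The 10 pluripotency markers had a median of -1.13, with 0 called larger and 1 smaller. The part of these markers in the Hox differences was not tested. Leaving out 1 stratum at a time left between 1 and 4 rows called, and 1 in 8 cases: day 2, 4 or 8 Thy1-SSEA1-, day 8 or 14 Thy1+SSEA1-, day 8 or 14 Thy1-SSEA1+ and day 14 GFP+. Hoxa10 passed in each of these 13 fits, while Hoxa9 and Hoxc10 each failed in most of them.

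Hoxa10, the Hox RNA with the highest mean, read 21.8, 50.5, 46.3 and 52.5 FPKM in the Thy1+SSEA1- controls of days 2, 4, 8 and 14, against 12.5, 50, 34.2 and 36.2 with Dppa2/4. In Thy1-SSEA1+ cells it read 13.3, 13.5 and 13.3 in controls on days 8, 11 and 14, against 27.4, 31.8 and 22.1. In GFP+ cells it read 1.44 and 0.901 in controls against 10.6, 3.28 and 2.95. The arms overlapped in Thy1+SSEA1- cells, with Dppa2/4 lower at each day, and did not overlap in Thy1-SSEA1+ or GFP+ cells, where Dppa2/4 was higher. Hoxa9 showed the same arrangement in Thy1-SSEA1+ cells, with 8.31, 13.2 and 7.26 in controls against 27.6, 16.8 and 17.9, and in GFP+ cells, with 0.512 and 0.228 against 10.1, 1.96 and 1.65. Hoxc10 read 6.40, 6.22 and 7.31 FPKM in the Thy1-SSEA1+ controls and 13.3, 13.3 and 12.8 with Dppa2/4. The mean Dppa2/4 differences of Hoxa10 in the Thy1+SSEA1-, Thy1-SSEA1-, Thy1-SSEA1+ and GFP+ gates were -0.43, -0.28, 0.95 and 0.93, and the first was -0.57 without its day 4 stratum. With that stratum left out, Hoxa10, Hoxa9 and Hoxc10 still differed between gates, by 1.35, 1.23 and 0.73.

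The fibroblasts without the reprogramming cassette gave 1 library per arm on day 2 and allowed no test of their own. Dppa2 was 4443 FPKM in that Dppa2/4 library and 1.53 in its control. Hoxd1 was 3.78 FPKM with Dppa2/4 and 0.308 in the control, and Hoxd9 was 6.11 against 2.56. Hoxd8 went the other way, 9.69 against 16.1, as did Hoxd13, 6.77 against 11.2, and Hoxc8, 4.05 against 14.3. Added as a further stratum to the comparison above, this pair gave 15 rows higher and 0 lower, of which 14 were called without it. Hoxc6 was lost (limma adjusted p = 0.132) and Hoxa6 gained. The share of all genes called in that fit is not given here.

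The sorted gates were then compared within arm and day. These comparisons share libraries, so their results are not independent of each other. From Thy1+SSEA1- to Thy1-SSEA1- cells, over 7 pairs, 0 of 35 Hox rows passed the test (limma; 13 higher and 6 lower at an unadjusted p under 0.05), and 0.0259% of all genes did, 0.0129% higher and 0.0129% lower (2 and 2 genes, or 6 and 2 after quantile normalization). At that unadjusted p, 10.4% of all genes passed in either direction. All 8 tested Hoxb rows had a positive difference, with a median of 0.64, and Hoxb2 and Hoxb4 to Hoxb9 were higher in 7 of 7 pairs. Of the 35 rows, 5 reached 1 FPKM only in Thy1-SSEA1- cells, among them Hoxb2, Hoxb3, Hoxb5 and Hoxb8. These could enter the test only by being higher there. The Hoxb counts are a description, since the share of all genes higher in 7 of 7 pairs is not given here. Hoxb9, a gene of the thoracic vertebrae and ribs, had the largest difference, 1.23 (SE 0.25, limma adjusted p = 0.132), and 13.2 against 4.35 FPKM. It read 25.6 and 26.2 FPKM in day 2 Thy1-SSEA1- cells of the control and Dppa2/4 arms, above the 4.88 to 11.8 of the later days in that gate and the 2.28 to 5.45 of Thy1+SSEA1- cells. Hoxb8 was likewise highest in those 2 libraries, at 4.61 and 4.24 FPKM, and so was Hoxc8, at 26.8 and 26.1. At the posterior end the 6 tested rows of paralogs 11 to 13 had a median difference of -0.50, Hoxd13 with -0.86 and Hoxa13 with -0.66, and Hoxa9 was lower in 7 of 7 pairs. Without the pair that holds the day 4 Thy1+SSEA1- library labelled Dppa2/4, 0 of 35 rows passed again (limma; 14 in either direction at an unadjusted p under 0.05), Hoxb9 differed by 1.14, Hoxd13 by -0.73 and Hoxa9 by -0.32, and 3 rows that were not called changed sign (Hoxa6, Hoxd1 and Hoxd10).

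From Thy1-SSEA1- to Thy1-SSEA1+ cells, over 5 pairs, 7 of 31 Hox rows fell and 0 rose, while 21.9% of all genes were called, 12.4% lower and 9.55% higher. The rows that fell were Hoxb9 (-1.75), Hoxd13 (-1.48), Hoxc8 (-1.35), Hoxb7 (-1.04), Hoxa11 (-0.96), Hoxb6 (-0.84) and Hoxb2 (-0.53). The Hoxb2 call was lost in 9 of 10 alternatives, each fit that left out a pair among them, the Hoxa11 call in 5 of 11 and the Hoxc8 call in 4 of 11. The median Hox difference was -0.45, against 0.01 for all genes. Hoxb9 was 0.865 and 0.590 FPKM in control Thy1-SSEA1+ cells on days 8 and 11 and 1.53, 2.89 and 2.00 with Dppa2/4 on days 8, 11 and 14, against 4.88 to 11.8 in the Thy1-SSEA1- libraries they were paired with. The gates did not overlap for Hoxb2, Hoxb6, Hoxb7, Hoxb9 or Hoxc8, which is a description, since the share of all genes without overlap is not given here. All 4 Hoxb rows tested here fell, and the other 6 rows of the cluster did not reach 1 FPKM in 2 libraries. Hoxb2 and Hoxb6 reached 1 FPKM in no Thy1-SSEA1+ library of these pairs, so they entered the test only through the gate in which they were higher, and their fall is a description. Without the control day 8 pair or the control day 11 pair, 4 rows fell in each case. Between these gates 11 of 12 fibroblast markers fell and 10 of 10 pluripotency markers rose, and their part in the Hox differences was not tested.

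Set against Thy1+SSEA1- cells directly, over 4 pairs, Thy1-SSEA1+ cells had 8 of 29 Hox rows lower and 0 higher, with 24.1% of all genes called, 13.5% lower and 10.6% higher. Hoxd13 was the most changed, 2.96 against 20.7 FPKM (-2.44, SE 0.32, limma adjusted p = 0.0115). Hoxa11, a gene of the forearm, shank and kidney, fell by 1.57, Hoxd12 by 1.43 and Hoxa13 by 1.33, and Hoxa10, Hoxc8, Hoxb9 and Hoxc6 fell by 1.16, 1.12, 1.01 and 0.92. Of paralogs 11 to 13, 4 of 6 fell, with a median of -1.38, whereas 0 of 5 anterior rows fell, with a median of 0.10. The count depended on single pairs: without the control day 14 pair 1 row fell, without the control day 8 pair 2 did, and without the Dppa2/4 day 14 pair 5 did.

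GFP+ cells had lost most Hox RNA. Against Thy1-SSEA1+ cells, over 5 pairs, 28 of 30 tested rows fell and 0 rose, with 45.4% of all genes called, 25.9% lower and 19.5% higher. Of the 30 rows, 15 reached 1 FPKM only in Thy1-SSEA1+ cells, so these could enter the test only by being higher there, and all 15 fell; of the 15 that reached it in both gates 13 fell. The median Hox difference was -1.21, against -0.06 for all genes. Hoxc10 fell by 2.59 (SE 0.12, limma adjusted p = 0.000502), Hoxa9 by 2.56, Hoxa10 by 2.45, Hoxc6 by 2.25, Hoxd8 by 2.14, Hoxa11 by 1.82, Hoxd9 by 1.77 and Hoxc8 by 1.74. Hoxc8 is among the 15 rows that reached 1 FPKM only in Thy1-SSEA1+ cells, so its fall is a description. Those 15 rows also enter the Hox median. In 28 of 30 rows GFP+ cells were lower in all 5 pairs. That count also takes in those 15 rows and is a description, since the share of all genes lower in all 5 pairs is not given here. Quantile normalization moved the median of all genes by over 0.1, from -0.06 to 0.06, and split all genes 3614 higher to 3030 lower in place of 2988 to 3975. The Hox median was then -0.95, and 26 rows fell and 1 rose. Between these gates 11 of 12 fibroblast markers fell and 10 of 10 pluripotency markers rose. The fibroblast markers still summed to 50.9 to 107 FPKM in GFP+ cells, against 90.6 to 513 in Thy1-SSEA1+ cells, and their part in the Hox differences was not tested.

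Hoxc13, a gene of hair and nail, was one of the rows that did not fall from Thy1-SSEA1+ to GFP+ cells. It read 0.786 and 1.42 FPKM in control GFP+ cells and 0.342, 0.968 and 2.25 with Dppa2/4, against 0.332 to 1.06 in Thy1-SSEA1+ cells. It was higher in 5 of 5 pairs by 0.36 (SE 0.14, limma adjusted p = 0.082), and against Thy1+SSEA1- cells it was higher in 3 of 3, 1.34 against 0.217 FPKM (limma adjusted p = 0.0776). After quantile normalization Hoxc13 was higher in GFP+ than in Thy1-SSEA1+ cells by 0.58 (limma adjusted p = 0.0298).

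**Figure D4:**
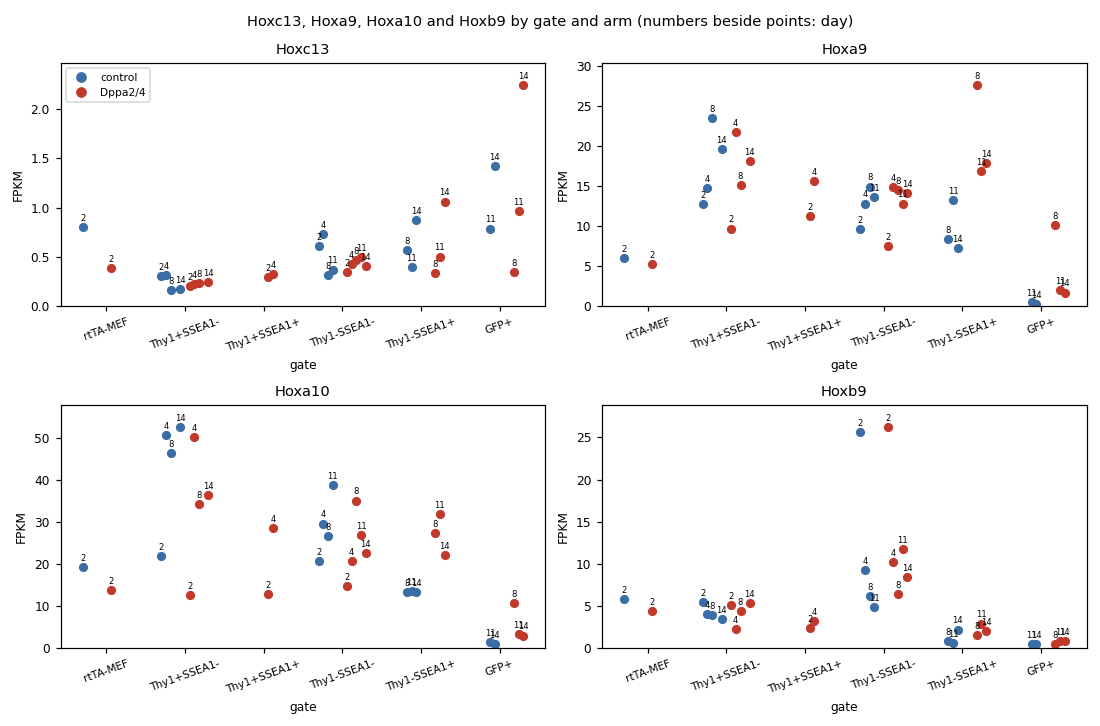
FPKM of Hoxc13, Hoxa9, Hoxa10 and Hoxb9 is plotted for each library by gate, blue for control and red for Dppa2/4, with the day beside each point. Hoxa10 and Hoxb9 have their lowest values in GFP+ cells, Hoxa9 drops to 0.228 there, and Hoxc13 reaches its highest value, 2.25, in GFP+ cells.

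The GFP+ cells of the Dppa2/4 arm kept more Hox RNA than those of the control arm, most of all on day 8, for which no control was analysed here. On that day Hoxa10 was 10.6, Hoxa9 10.1 and Hoxa7 6.17 FPKM, and the Hoxa cluster made up 77.8% of the Hox sum. On day 11 the sum was 24.9 with Dppa2/4 against 12, and on day 14 it was 30.7 against 11.9. The 10 pluripotency markers summed to 3102 to 4259 FPKM in these Dppa2/4 GFP+ libraries and to 4131 and 5784 in the controls.

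Against Thy1+SSEA1- cells, over 3 pairs, GFP+ cells had 25 of 29 rows lower and 0 higher, with 49.3% of all genes called, 26.9% lower and 22.3% higher. Of these rows 14 reached 1 FPKM only in Thy1+SSEA1- cells, and 13 of them fell; of the 14 that reached it in both gates 12 fell. The largest falls were Hoxd13 (-3.29), Hoxa10 (-3.22), Hoxa11 (-3.13), Hoxc6 (-3.12), Hoxc8 (-2.84), Hoxc10 (-2.76), Hoxd8 (-2.61) and Hoxd12 (-2.54). Hoxc8 and Hoxd12 reached 1 FPKM only in Thy1+SSEA1- cells, so their falls are a description. The median was -1.77, against -0.04 for all genes, and quantile normalization moved those to -1.54 and 0.11. The posterior rows had a median of -2.29, the central rows -1.16 and the 4 tested anterior rows -0.73 (not tested against each other). These Hox medians include the 14 rows that reached 1 FPKM only in Thy1+SSEA1- cells. Besides Hoxc13, rows that did not pass included Hoxa4 (-0.55) and Hoxd1 (-0.65).

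**Figure D5:**
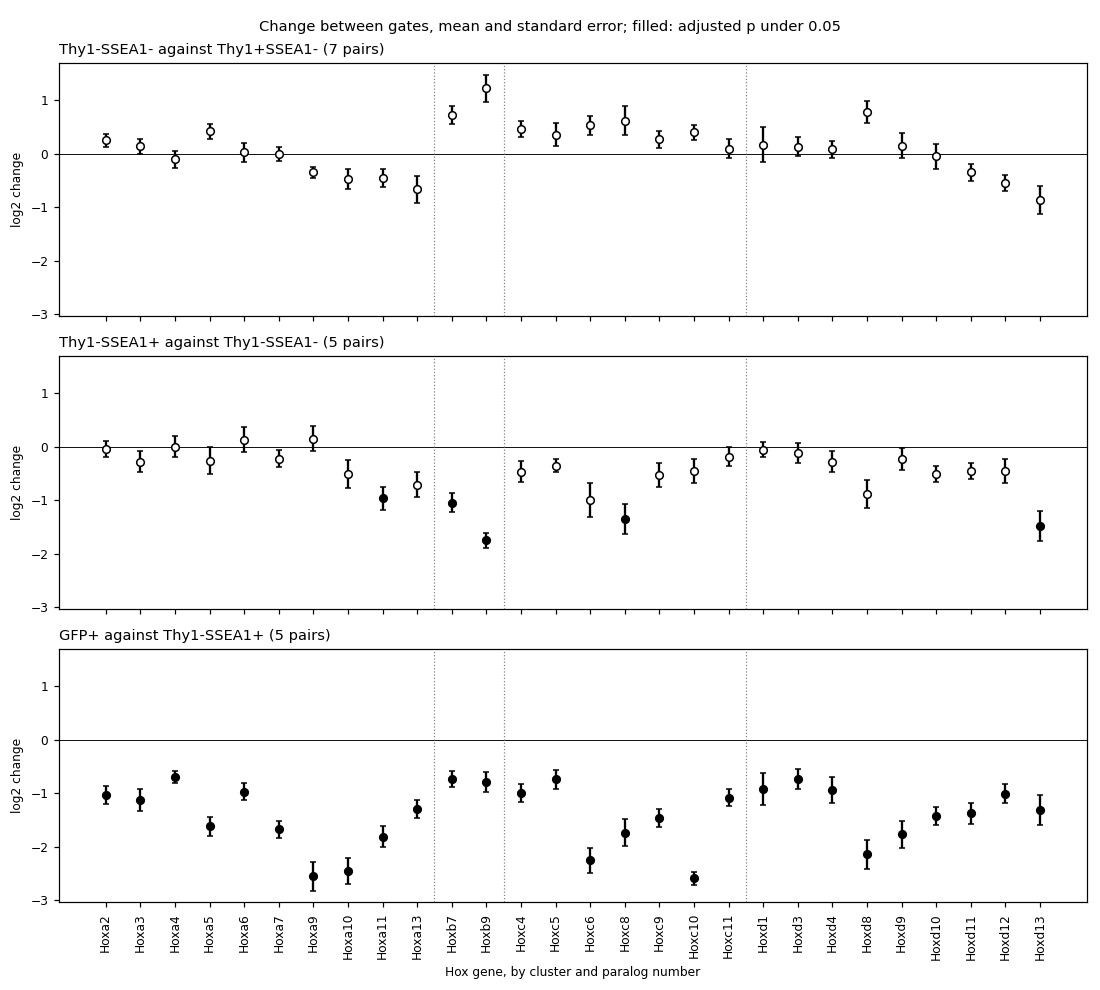
The 3 panels give the mean log2(FPKM + 1) change and its standard error for 28 Hox genes tested in all 3 steps, from Thy1+SSEA1- to Thy1-SSEA1-, on to Thy1-SSEA1+ and on to GFP+ cells, filled where the adjusted p was under 0.05. No point is filled in the first panel, Hoxa11, Hoxb7, Hoxb9, Hoxc8 and Hoxd13 are filled in the second, and all points are filled in the third.

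Within a gate, Hox levels were also followed over days. In Thy1+SSEA1- cells, over 8 libraries, 0 of 29 rows had a slope past the threshold (limma; 6 positive and 0 negative at an unadjusted p under 0.05), while 2.1% of all genes did, 1.3% up and 0.8% down. At that unadjusted p, 25.5% of all genes passed in either direction, a share that the Hox count did not exceed. With the day 4 Thy1+SSEA1- library labelled Dppa2/4 left out, 3 rows had a positive slope, namely Hoxd10 (0.10 per day on the log2 scale), Hoxd11 (0.09) and Hoxc6 (0.06). The count over all genes went at the same time from 192 up and 118 down to 1686 and 1083, so these 3 rows are not read as a trend of Hox genes. Quantile normalization with all libraries gave 93 up and 127 down over all genes and again 0 Hox rows. In Thy1-SSEA1- cells, over 9 libraries, 0 of 35 rows passed (limma; 2 positive and 6 negative at an unadjusted p under 0.05), with 2.77% of all genes, 1.68% up and 1.09% down. At that unadjusted p, 22.9% of all genes passed in either direction, about the same share as among the Hox rows. All 8 tested Hoxb slopes in this gate were negative, and Hoxb8 and Hoxb9 had the steepest, at -0.13 per day each. Hoxb5 reached 1 FPKM only on day 2 and Hoxb8 only on days 2 and 4, so they entered the fit through the early days. The Hoxb count is a description, since the share of all genes with a negative slope is not given here.

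Other genes of the Hox pathway were read from lists, against the shares of all genes given above for each comparison, which were 15.6% higher and 7.75% lower with Dppa2/4. Hox proteins bind DNA with cofactors of the TALE family, and 5 of the 9 listed (Meis3, Meis2, Pknox2, Meis1 and Pbx2) fell with Dppa2/4 while 0 rose, with a median of -0.36. Meis2 averaged 8.80 against 16.2 FPKM (-0.69) and Meis3 5.03 against 9.06 (-0.73). Of 9 tested upstream regulators 2 rose, Gdf11 (0.75), a growth factor that moves the trunk-to-tail transition, and the retinoic acid receptor gene Rarb (0.70), and 0 fell; after quantile normalization 2 rose and 2 fell. Of 5 genes of the trithorax side, which keeps Hox genes active, 1 fell, Wdr5 (-0.41). Among 7 tested non-coding RNAs of the clusters 4 rose, Haglr (1.26), Hotairm1 (0.64), Hoxaas3 (0.57) and Hoxd3os1 (0.48), each of which lies beside or opposite Hox genes. Haglr and Rarb did not reach 1 FPKM in any sorted control, with highest values of 0.543 and 0.761 in Thy1-SSEA1- cells. They entered the test only through the Dppa2/4 arm, in which they were higher, so their rises are a description. Of 10 tested genes that flank the clusters 0 rose and 1 fell, Calcoco1 (-0.31).

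Haglr, transcribed beside Hoxd1, was 0.0985 to 0.325 FPKM in the 4 control Thy1+SSEA1- libraries and 0.193 to 3.15 in the 4 with Dppa2/4, and in Thy1-SSEA1+ cells 0.0697 to 0.172 against 1.95 to 3. The arms did not overlap in Thy1-SSEA1+ cells. Without the day 4 library labelled Dppa2/4 they did not overlap in Thy1+SSEA1- cells either. In the step from Thy1-SSEA1+ to GFP+ cells, where 25.9% of all genes fell and 19.5% rose, 5 of 9 TALE cofactors fell and 1 rose, led by Meis2 (-1.83) and Pbx3 (-1.24). Upstream regulators gave 4 lower, with Egr2 at -1.39 and Rxra at -1.31, and 2 higher, Nr6a1 (1.63), a repressor active in pluripotent cells and the early trunk, and Gbx2 (0.69). Trithorax-side genes gave 2 higher, Ash2l (1.24) and Wdr5 (1.02), and 1 lower, Kmt2a (-0.61). Of 6 tested cluster non-coding RNAs 5 fell, Hoxa11os most (-2.68), and of 10 flanking genes 4 rose, led by Calcoco2 (2.01), and 1 fell, Mtx2 (-0.29).

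Markers of other cell types that such cultures could hold were counted in the Dppa2/4 comparison as well, in which 23.4% of all genes were called, 15.6% higher and 7.75% lower. Fibroblast markers gave 1 higher and 3 lower of 12, and their sum in Thy1+SSEA1- cells was 2179 to 2780 FPKM in controls and 737 to 2101 with Dppa2/4. Pluripotency markers gave 0 higher and 1 lower of 10. Kidney and genital tract mesenchyme gave 2 higher of 4 tested, Pax8 (1.39) and Foxd1 (0.62), with sums of 3.71 to 5.39 FPKM in the Thy1+SSEA1- controls and 4.03 to 11.7 in the Dppa2/4 libraries of that gate, where Tcf21 was at 0 in all 4 libraries; Pax2 was at 0 in the 4 controls. Limb mesenchyme gave 0 of 7 and the neural list 0 of 4. The limb markers summed to 24.4 to 34.3 FPKM in the Thy1+SSEA1- controls and 12.6 to 24.0 with Dppa2/4, without overlap. In the Thy1-SSEA1-, Thy1-SSEA1+ and GFP+ gates their arms overlapped. Of the 7 limb markers, Tbx4 alone had a Dppa2/4 difference that depended on the gate, larger in Thy1-SSEA1+ and GFP+ strata (1.33, limma adjusted p = 0.0297). Of the endothelial list 1 rose, Cldn5 (1.85), and 1 fell, Tek (-0.74), of 3 tested. Of the other lists, blood and macrophage gave 1 higher of 2 (Cd68, 0.54), skeletal muscle 1 of 1 (Des, 1.38) and keratinocyte 0 of 3. The part of these in the Hox differences was not tested.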

How the data were processed

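RNA sequencing libraries of sorted and unsorted mouse cells were deposited as 1 table of FPKM values per gene; no read counts were used. Reads were processed with TopHat2 and Cuffdiff on mm10, per the submitters' processing notes; the versions, annotation, strand setting and normalization are not given in the sources used here. Of 33 value columns, 1 matched no sample and was left out. The authors' FPKM values were taken as deposited, with nothing dropped or imputed within a fit. A gene was tested where 2 or more libraries of a fit reached 1 FPKM, with limma (version 3.58.1, R 4.3.3; lmFit, eBayes with trend) on log2(FPKM + 1), a scale that understates changes of low genes. Benjamini-Hochberg adjustment ran over all genes tested, with a threshold of 0.05. Day and gate (for the arms) or arm and day (for the gates) entered as a block. The fits were tested on simulated data. Depth was inferred from the spacing of low FPKM values and is approximate.

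The Hox rows, gene lists and tests were chosen with earlier results of these data known. Named were the 3 members of each cluster with the highest mean, up to 8 rows per comparison and direction past the threshold with the largest change, and up to 4 genes per list; members and list genes named beyond that were chosen after their values were seen. Alternatives were another pseudocount, dropping the filter, a filter on a mean of 5 FPKM, quantile normalization, a fit with no block, a fit with no trend, the pair without the cassette added, and each stratum, pair or library left out. Annotation came from GENCODE, which lacks the IDs of the second Hoxa3 row and of the Hoxd4 row. One Hox row enters the counts and sums but is not reported by name here.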

Additional observations from a re-analysis of the deposited data

Results flagged for a closer look

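Hoxa9, Hoxa10 and Hoxc10 were singled out because the Dppa2/4 difference itself differed between gates, by limma's test of the difference. On the log2(FPKM + 1) scale, the mean difference in the 5 Thy1-SSEA1+ and GFP+ strata exceeded that in the 8 SSEA1- strata by 1.14 for Hoxa9, 1.30 for Hoxa10 and 0.72 for Hoxc10. In the Thy1-SSEA1+ gate the 10 pluripotency markers summed to 258 to 944 FPKM with Dppa2/4 and 846 to 1925 in controls, and their part was not tested.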

How the results depend on the processing

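No direction of a called Hox row reversed under any alternative. The counts that follow are of Hox rows only, without the share of all genes called in the same fit. They show whether the calls held and are not results about Hox genes in particular. The pseudocount of 0.1 raised the count of larger differences by gate from 3 to 7. With a mean FPKM of at least 5, fewer rows were tested: 3 rose with Dppa2/4, 3 fell from Thy1-SSEA1- to Thy1-SSEA1+, 5 fell from Thy1+SSEA1- to Thy1-SSEA1+, 4 fell from Thy1-SSEA1+ to GFP+ and 8 from Thy1+SSEA1- to GFP+. Without the block, the counts were 3 higher with Dppa2/4 (Hoxd1, Hoxd4 and Hoxd9), 0 by gate, 4 lower from Thy1-SSEA1- to Thy1-SSEA1+ and 5 lower from Thy1+SSEA1- to Thy1-SSEA1+. The block pairs libraries by day and gate, or by arm and day, since the labels give no replicate numbers. With no filter, 0 rows fell from Thy1+SSEA1- to Thy1-SSEA1+, and the 8 had adjusted p of 0.0556 to 0.104 (limma). Quantile normalization gave 1 higher row in that comparison and 1 from Thy1-SSEA1+ to GFP+, as did no trend. With the day 4 Thy1+SSEA1- library labelled Dppa2/4 left out, 3 rows had a positive slope in Thy1+SSEA1- cells, while the count over all genes rose as well. The cause was not tested. Leaving out 1 stratum, pair or library at a time gave 13 to 18 rows higher with Dppa2/4, 1 to 4 by gate, 4 to 6 lower from Thy1-SSEA1- to Thy1-SSEA1+, 1 to 7 lower from Thy1+SSEA1- to Thy1-SSEA1+, 23 to 28 lower from Thy1-SSEA1+ to GFP+, and 19 to 25 lower and 0 to 1 higher from Thy1+SSEA1- to GFP+, and 0 to 3 positive slopes in Thy1+SSEA1- cells. Quantile normalization changed the sign of the Dppa2/4 difference in 7 rows, none of them called: Hoxb2, Hoxb3, Hoxb5, Hoxb6, Hoxb7, Hoxc13 and Hoxd12. With no counts in the table, values near 0 FPKM carry no counting error here.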

Other observations

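Cdx genes, which activate central and posterior Hox genes in the embryo, were near 0 in most libraries. On day 2, Cdx1 and Cdx2 read 1.93 and 1.06 FPKM in Dppa2/4 Thy1+SSEA1- cells, against 0.0192 and 0 in the matching control. In the fibroblasts without the reprogramming cassette they read 1.04 and 2.24 with Dppa2/4, against 0 and 0 in the control. No test was made of these values.

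Thy1+SSEA1+ cells were available only with Dppa2/4, on days 2 and 4. Their Hox sums were 130 and 187 FPKM, and they held 1.61 and 3.3 FPKM of Hoxd1 and 6.1 and 11.1 of Hoxd9. Both genes lay above their values in all 13 sorted control libraries.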
